A study of Mus musculus with 2 samples.

Results

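The genes described here are 9 that Wnt signalling switches on or that feed back on it: Sp5, Axin2, Dkk1, Nkd1, Rspo3, Lef1, Tcf7, Notum and Lgr5. They were picked by name, and a probe set counted as a member when the platform annotation gave it exactly 1 gene symbol equal to one of these names. That rule found 16 probe sets for 8 of the 9 genes, out of 45101 probe sets on the array. Tcf7 matched none and is not analysed here. The RNA came from embryoid bodies, aggregates in which embryonic stem cells start to differentiate, grown in hanging drops from CGR8, a mouse embryonic stem cell line of strain 129 kept without feeder cells. The control group (1 array) had differentiation medium with no added agent, and the FGF10 group (1 array) had the same medium with recombinant FGF10, a secreted fibroblast growth factor, at 100 ng/ml. Sample labels place both RNAs at day 2, while the design text places them 24 h after FGF10 was added to bodies already 2 days old, so the exact age is uncertain.

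In canonical Wnt signalling, secreted Wnt ligands bind Frizzled and Lrp receptors, which halts the destruction of β-catenin by a complex built on Axin and Apc. β-catenin then enters the nucleus and joins DNA-binding factors of the TCF/LEF family, whose target genes include several inhibitors of the pathway itself, so that the response limits itself. In the early mouse embryo the pathway is needed to form the primitive streak, the site from which mesoderm and endoderm arise, and differentiating embryonic stem cells pass through a comparable state.

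The stretches of DNA just upstream of 3 members are shown first because TCF/LEF factors act on target genes through a short, well-described DNA motif. The words searched, on both strands, were the letters CTTTG followed by 2 bases that are each A or T, the common forms of that motif, and the search was set up after the sequences had been read. Each run holds the 250 bases before an annotated transcription start, written 5′ to 3′ along the gene's strand, from RefSeq on build GRCm38.p6, with matches in capitals. Sp5 is on the plus strand (chr2:70474673-70474922), Dkk1 on the minus strand (chr19:30549497-30549746) and Axin2 on the plus strand (chr11:108920099-108920348).
Sp5: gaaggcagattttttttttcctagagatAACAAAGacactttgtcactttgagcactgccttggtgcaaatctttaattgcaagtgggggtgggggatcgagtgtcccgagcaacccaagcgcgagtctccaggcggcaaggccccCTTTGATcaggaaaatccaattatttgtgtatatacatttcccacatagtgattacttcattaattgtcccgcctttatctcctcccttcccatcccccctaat
Dkk1: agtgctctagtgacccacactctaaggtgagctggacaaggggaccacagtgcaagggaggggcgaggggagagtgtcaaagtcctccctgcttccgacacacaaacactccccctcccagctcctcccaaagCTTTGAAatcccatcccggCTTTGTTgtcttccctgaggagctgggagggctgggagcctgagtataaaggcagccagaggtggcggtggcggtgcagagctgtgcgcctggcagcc
Axin2: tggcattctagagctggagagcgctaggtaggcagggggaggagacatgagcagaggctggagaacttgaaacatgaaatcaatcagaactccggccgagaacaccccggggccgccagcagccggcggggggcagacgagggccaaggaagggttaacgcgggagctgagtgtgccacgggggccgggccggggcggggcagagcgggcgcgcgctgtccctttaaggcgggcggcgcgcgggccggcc

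The Sp5 window held 2 matches, CTTTGAT beginning 104 bases before the start and CTTTGTT, read on the opposite strand, reaching 222 bases before it. The Dkk1 window also held 2, CTTTGAA beginning 117 and CTTTGTT beginning 98 bases before the start. The Axin2 window and the window of the 1 Nkd1 start in the table held 0, as did both Tcf7 windows, and of 4 annotated Lef1 starts 1 had a match (CTTTGTA, on the opposite strand). Windows of Rspo3, Notum and Lgr5 were not used here. Of 32817 such windows over all genes in the table, 14.8% held at least 1 match and 1.43% held 2 or more. A match is a description of the letters and not evidence of binding, and a window without one says nothing about sites elsewhere.

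Each array gives a MAS5 signal per probe set, a brightness on a linear scale, and the median signals were 75.7 (control) and 77.9 (FGF10). The ratio used below is the log2 of FGF10 divided by control, centred on the median ratio of all probe sets that passed a filter on brightness (mean signal of at least 76.35, the median of all probe sets other than chip controls). Signals of different probe sets are not compared, since each has its own response. Each group has 1 array, so no replicate check or test can be made and the numbers describe these 2 RNA samples. Error within the arrays was read from probe sets of the same gene. The technical SD of a log2 ratio was 0.41 in signal class 1 (the dimmest of 5 equal classes of genes), 0.34 in class 2 and 0.27 in class 3, the classes the members fall in. The ratio of 3′ to 5′ signal, a sign of RNA integrity, was 1.27 (control) and 1.23 (FGF10) for Actb and 0.812 and 0.811 for Gapdh. All 8 markers of pluripotent cells passed the filter, from Esrrb (141.7 in the control and 126.3 with FGF10), which was dim, to Pou5f1 (8157.8 and 8787.2) and Dppa5a (17188.2 and 8648.7), while of 8 fibroblast markers 6 were below the filter.

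Sp5 and Rspo3 had by far the largest differences among the members, about 8-fold and 4-fold higher on the FGF10 array, and Dkk1, Nkd1 and Axin2 were each close to 2-fold higher. Lef1 was near equal on the arrays, and Notum and Lgr5 were too dim to be measured. Of the 6 members with a probe set past the filter, 5 were at least 1.5-fold higher and 0 lower, where 5.41% of all 11122 measured genes were that much higher and 4.86% that much lower. In signal classes 1, 2 and 3, which hold the members, 10.4%, 7.6% and 5.35% of genes were that much higher. The shares that much lower in these classes were 14.25%, 4.77% and 2.74%. At 2-fold, 3 of the 6 were higher (Sp5, Rspo3 and Dkk1), against 1.32% of all genes. Dkk1 only just passed (2.01-fold), and it fell short of 2-fold after quantile (log2 ratio 0.94) or loess normalization (0.94), with an offset (0.93), as the mean over its probe sets (0.88) and on its second brightest probe set (0.75). The median log2 ratio over the 6 was 0.98, against -0.03 over all genes. The members were listed with earlier results on these arrays known, so these counts describe the genes and are no independent evidence. None of the 6 passed the filter through the FGF10 array alone, since the brightest probe set of each was above 76.35 on both arrays. In a mixture of cells such as an embryoid body, more cells that express a gene and more RNA per cell cannot be told apart.

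**Figure D1:**
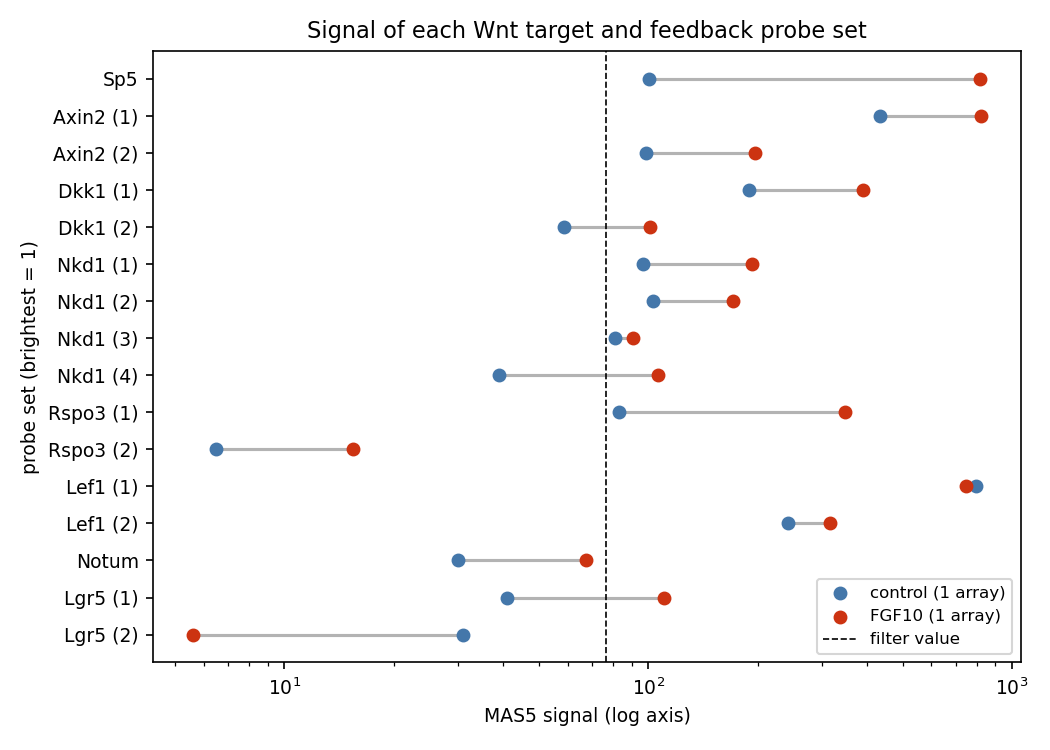
MAS5 signal (log axis) of each of the 16 member probe sets on the control array (blue) and the FGF10 array (red), joined by a grey line, with the filter value of 76.35 dashed and probe sets of a gene numbered from the brightest. The red point lies to the right of the blue one for all but the brighter Lef1 probe set and the dimmer Lgr5 probe set, and the longest lines above the filter belong to Sp5 and Rspo3.

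Sp5 and Lef1 are the transcription factors of the group with a probe set. Sp5 encodes a zinc finger protein of the Sp family and is a direct target of Wnt signalling in the primitive streak. Its only probe set (1422914_at) read 100.4 in the control and 817.4 with FGF10, a log2 ratio of 2.99 or 7.95-fold. That is 10.9 times the technical SD of class 3, where its mean signal falls, and Sp5 ranked 6 from the top of 11122 genes. Its control reading taken alone lies in the range of class 1, where the SD was 0.41, so that multiple may be too large. With a single probe set there is no second reading of Sp5 on the array. Its nearest neighbours in the order of ratios were Foxa2, a forkhead factor of the anterior streak and endoderm (292.5 and 2563.4, log2 ratio 3.10), just above, and Ndufa4l2, whose protein is related to a respiratory chain subunit (24.6 and 200, ratio 2.99), just below. Likeness here means only a similar ratio over 2 arrays, and among the neighbours named here and below Ndufa4l2, Sall3, Gdf9 and Doc2g had control signals under 76.35.

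Lef1, which encodes a TCF/LEF factor that carries β-catenin to DNA and is itself a Wnt target, was near equal on the arrays. Its brighter probe set (1454734_at) read 797.6 in the control and 745.3 with FGF10, a log2 ratio of -0.13. Its other probe set (1421299_a_at) read 241.9 and 316.4, a ratio of 0.35. The readings thus lay on either side of 0, each close to or less than 1 technical SD away from it, and neither reached 1.5-fold. Lef1 was at rank 7101 of 11122 by its brighter probe set.

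The R-spondin gene Rspo3 was the second largest difference. R-spondins are secreted proteins that strengthen Wnt signalling by sparing Frizzled receptors from removal at the cell surface. The brighter Rspo3 probe set (1455607_at) read 83 in the control and 348.2 with FGF10, a log2 ratio of 2.03 or 4.10-fold, rank 18 of 11122. The control reading was only just above the filter value, where a signal may not be clear of background, so the size of the ratio is loosely fixed. The other Rspo3 probe set (1443187_at), with signals of 6.5 and 15.4, was far below the filter and gives no usable ratio. The genes next to Rspo3 in the order were Sall3, a zinc finger factor (ratio 2.18), and Zap70, a kinase best known from T cells (2.02).

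Lgr5 encodes a receptor for R-spondins and marks Wnt-dependent stem cells in several adult tissues. Its probe sets went opposite ways, 41 to 110.4 on one (1450988_at) and 30.9 to 5.6 on the other (1444519_at). Both had a mean signal below the filter, the first by little (75.7), so no direction is given for Lgr5.

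The secreted inhibitors were Dkk1 and Notum. Dkk1 binds the Lrp5 and Lrp6 receptors and keeps Wnt from using them. Its brighter probe set (1420360_at) read 188.8 in the control and 388.4 with FGF10, a log2 ratio of 1.01 or 2.01-fold, rank 144 of 11122. The dimmer Dkk1 probe set (1458232_at) read 58.8 and 101.1, a ratio of 0.75, which shrank to 0.37 when the control signal was raised to the filter value. Both readings were higher with FGF10, and only the brighter one was above the filter on both arrays. Gdf9 (1.01) and Sema5a (1.01) stood next to Dkk1 in the order. Notum, an enzyme that strips the lipid from Wnt proteins and so inactivates them, read 30 and 67.5 on its only probe set (1451857_a_at), below the filter on both arrays.

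Axin2 and Nkd1 act inside the cell. Axin2 is a scaffold of the β-catenin destruction complex and the most widely used readout of Wnt activity. Its brighter probe set (1436845_at) read 432.4 in the control and 823.2 with FGF10, a log2 ratio of 0.89 or 1.86-fold, which is 3.27 times the technical SD at that brightness. The other Axin2 probe set (1421341_at) read 98.8 and 196.8, a ratio of 0.96. Axin2 is thus the member whose probe sets gave the closest ratios, both above the filter on both arrays. It ranked 193 of 11122, between Doc2g (0.90) and Iigp1 (0.89).

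Nkd1 binds Dishevelled, the protein that relays the signal from the receptor, and dampens it. The brightest of its 4 probe sets (1429506_at) read 96.7 and 192.6, a log2 ratio of 0.96 or 1.94-fold, at rank 165, between Rora (0.96) and Bnip3 (0.96). The second (1417278_a_at) read 102.8 and 171.1, a ratio of 0.70. The third (1429507_at) read 81.1 and 90.9, a ratio of 0.13, although the annotation ties it to the same sequence record as the brightest one. The fourth (1440446_at) read 38.8 and 106.5 and was below the filter. All 4 were higher with FGF10, and their sizes disagreed. The brightest lay 2.33 technical SDs from 0, the smallest such distance among the 5 higher members, and in its class, the dimmest, 10.4% of all genes were 1.5-fold higher.

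Counted by probe set, 11 of the 16 passed the filter. Of those, 8 exceeded 1.5-fold upward and 0 downward, against 6.68% of all 19966 such probe sets that were that much higher. The other 3 were both Lef1 probe sets and the third Nkd1 probe set. Among the 8, the dimmer Dkk1 probe set passed the filter through the FGF10 array, since its control signal was 58.8. With that signal raised to the filter value its ratio was 0.37, short of 1.5-fold. Probe sets of a gene share its RNA and are not separate evidence.

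**Figure D2:**
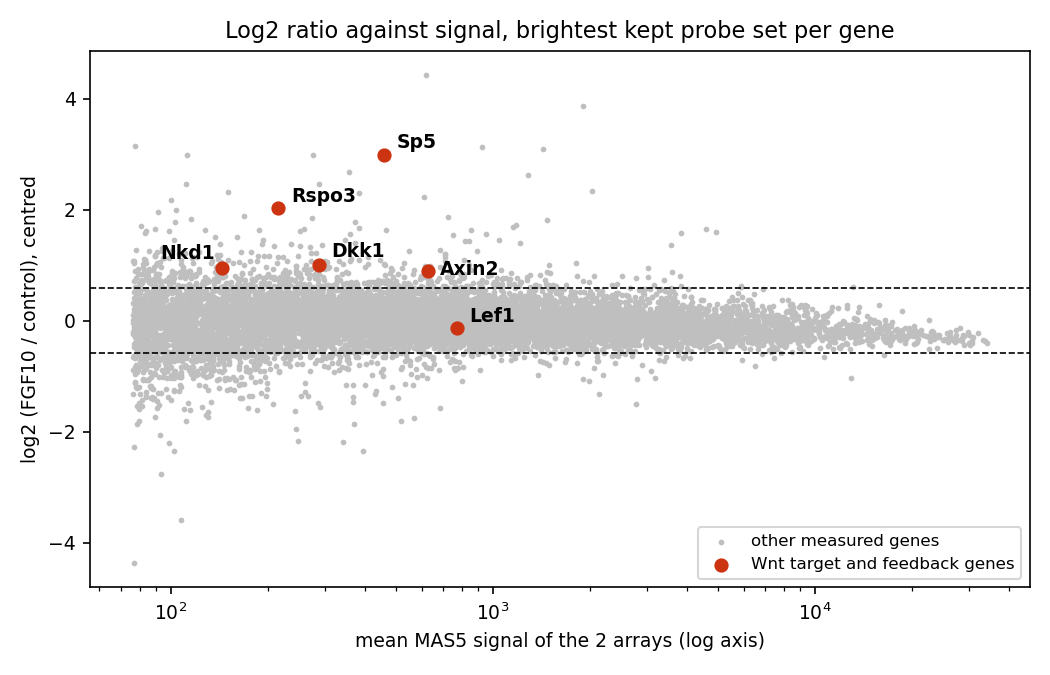
Centred log2 ratio of FGF10 over control against mean MAS5 signal (log axis) for 11122 genes, each read from its brightest probe set past the filter, with the 6 measured members in red and dashed lines at 1.5-fold. Sp5 (2.99) and Rspo3 (2.03) lie clear of most genes of like brightness, and Dkk1 and Axin2 lie above the upper line at the edge of the cloud. Nkd1 also lies above that line, within the wider spread of dim genes, and Lef1 lies inside the cloud.

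Most other genes of the pathway lay within 1.5-fold. Other Wnt pathway genes were listed by role under 93 symbols. Among them, T, Aes and Wisp1 stand beside Tbxt, Tle5 and Ccn4, newer symbols of the same genes. Of the 93 symbols, 85 had a named probe set and 62 passed the filter. Of these, 13 were at least 1.5-fold higher and 1 lower, with a median log2 ratio of 0.16, against 5.41% and 4.86% of all genes and a median of -0.03. The lists by role were also chosen with earlier results on these arrays known. Among 7 measured receptors and genes of the R-spondin axis 2 were higher, Ror2, a receptor for non-canonical Wnt ligands (1.09, with 0.35 on its other probe set), and Lrp6, a Wnt co-receptor (0.59, with 0.30 on the other), which only just passed. Znrf3, the ubiquitin ligase that removes Frizzled and is blocked by R-spondins, was just short of 1.5-fold (448.7 and 675.4, ratio 0.56) and at -0.24 on its other probe set. Its partner Rnf43 was below the filter, and Lgr4, the R-spondin receptor that was bright here, read 3943.7 and 3555.4 (-0.18). Of 4 genes of Wnt secretion, Wls, which carries Wnt proteins to the cell surface, was higher (0.63), with 0.03 on 1 of its other probe sets.

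Of 7 measured secreted inhibitors 3 were higher. Cer1, placed in this list, captures Nodal and BMP ligands. Its ratio was 2.98 from a control signal of 60.6, below the filter value, and 2.65 with that signal raised to it. Frzb, a Frizzled-related decoy, read 126.8 and 641.2 (2.30, with 3.07 on its other probe set). Apcdd1, a membrane inhibitor, had a ratio of 0.68 and others down to -0.0037. Sfrp1 (-0.28), Sfrp2 (0.01), Sfrp4 (-0.09) and Sfrp5 (-0.45), related decoys, were within 1.5-fold.

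In the list of β-catenin and its destruction complex 16 of 18 measured genes (88.9%) lay within 1.5-fold, near the 89.7% of all measured genes that did. Among them were β-catenin itself (Ctnnb1, 17562.1 and 16223.4, ratio -0.15), Apc (0.02), Axin1 (0.12) and Gsk3b (0.36, its 6 probe sets spanning -0.10 to 1.18). The exceptions were Dact1, a Dishevelled-binding protein, at 1.63 (223.2 and 709.6), and Nkd2, the paralogue of Nkd1, at -0.64 (183.9 and 120.8), whose probe sets ran up to 0.04. Nkd1 and Nkd2 therefore had ratios of opposite sign on their brightest probe sets.

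Of 13 measured TCF factors and cofactors 2 were higher. Tcf7l2, a β-catenin partner, had a ratio of 0.64 and a range of 0.61 to 0.70 over 3 probe sets. Tle3, a co-repressor, was at 0.62 with a range of 0.08 to 1.02. Tcf7l1, the TCF factor that mainly represses in embryonic stem cells, was bright and near equal (2581.9 and 2882.5, 0.12), and Sp8, a relative of Sp5, was just short of 1.5-fold (261.7 and 398.9, 0.57).

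Among 13 other known Wnt targets that were measured, 4 were higher: Mixl1 (238.2 and 3570.6, ratio 3.87), Fgf8 (1.81) and Evx1 (1.17), which are genes of the primitive streak, and the receptor gene Tnfrsf19 (0.92, range 0.22 to 1.40). The growth-related targets Myc (0.27), Ccnd1 (-0.21) and Ccnd2 (0.29) were within 1.5-fold, as were Cd44 (-0.07) and Ephb3 (0.42). The filter removed the homeobox genes Cdx1, Cdx2 and Cdx4. Tcf7l1 holds down a set of genes in embryonic stem cells, and Wnt activity relieves that repression. Of 7 such genes, all measured, 0 were 1.5-fold higher and 2 lower, against 5.41% and 4.86% of all genes. The lower ones were Nr5a2 (-1.01) and Nr0b1 (-0.71), while Nanog was at 0.22, Klf2 at -0.21 and Esrrb at -0.20. Nr5a2, with 1 of 4 probe sets kept, passed the filter through the control array (114.9), since it read 58.3 with FGF10. With that signal raised to the filter value its ratio was -0.62. What these genes say of Wnt activity was not tested.

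**Figure D3:**
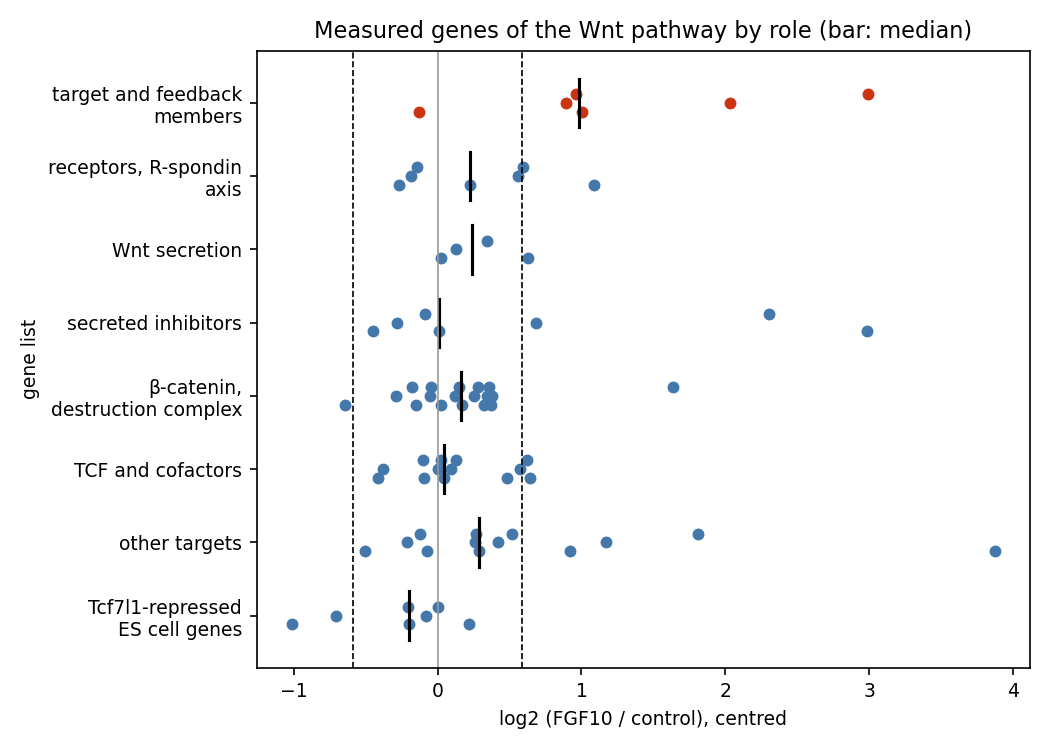
Centred log2 ratio of FGF10 over control for every measured gene of the members and of 7 other Wnt-related lists, 1 point per gene, with a black bar at the list's median and dashed lines at 1.5-fold. The members' median of 0.98 is the highest of these Wnt-related lists, the lists of the β-catenin complex (0.16) and of TCF factors (0.05) centre near 0, and single genes such as Mixl1 (3.87) stand far out.

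Some markers of cell types also differed between the arrays. All 11 markers of the primitive streak and its mesoderm were at least 1.5-fold higher with FGF10 (median log2 ratio 1.81), and their summed signal was 3926 in the control and 17390 with FGF10. Over all measured genes 5.41% were that much higher and 4.86% that much lower. The marker lists, like the members, were chosen with earlier results on these arrays known, so their counts are no independent evidence. Mixl1, Fgf8 and Evx1 were already counted among the other Wnt targets above. Snai1 read 61 in the control, below the filter value, and its ratio was 1.31 with that signal raised to it. Of 12 visceral endoderm markers 7 were lower and 2 higher (Sox17 and Gata6), with sums of 16571 and 11209. Of 8 pluripotency markers 4 were lower (Zfp42, Dppa5a, Utf1 and Fgf4) and 0 higher, with sums of 44521 and 35198. Sums are weighted to the brightest probe sets, and Dppa5a alone (17188.2 and 8648.7) made most of that last difference. Pou5f1 (0.07), Nanog (0.22) and Sox2 (-0.003) were near equal on the arrays, and Esrrb (-0.20) was within 1.5-fold. Of 8 neural markers 3 were measured, with 1 lower (Pax6, -0.95), and of 2 measured fibroblast markers 1 was lower (Thy1, -0.61). Pax6 passed the filter through the control array (101.2), since it read 53.6 with FGF10. With that signal raised to the filter value its ratio was -0.44, short of 1.5-fold. All 7 measured reference genes, such as Actb and Tbp, were within 1.5-fold. Markers below the filter, such as Sox1 (40.7 and 2.4) and Zic1 (23.3 and 0.5), gave no usable ratio. The part of these cell types in the members' differences was not tested.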

How the data were processed

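Total RNA from 2 samples, 1 per group as the labels name them, was labelled with biotin and hybridised to 1 Affymetrix array each. The deposited values are MAS5 signal, an intensity on a linear scale, made by the authors per the submitters' processing notes; version and settings are not given in the sources used here. Each column's mean without its lowest and highest 2% was 500.003, so the arrays share a scale and any difference in total RNA is removed. Detection calls were not used, and 0 columns were left unused.

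Gene names came from the platform annotation: 34945 had 1 gene, 932 several and 9160 none listed, beside 64 chip controls. The gene IDs of 8 of 8 members found matched the RefSeq table for GRCm38.p6. Ratios had no offset, and 0.034 was subtracted as the median over 22524 kept probe sets. A gene took its brightest kept probe set. Technical SD is the SD of the difference between a gene's brightest 2 kept probe sets over the square root of 2, from 5213 genes. This leaves out variation between cultures. The fold of 1.5 stands in for a test.

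Named genes are every member, pathway genes past 1.5-fold, 12 central pathway genes fixed by name, and the neighbours in rank of members past 1.5-fold; other genes were added after their values were seen. Members and lists were chosen with earlier results of these data known. Alternatives were other centring, quantile and loess normalization, an offset, a signal floor, other filters, other probe set rules and a 2-fold threshold. The code (Python 3.11.15, pandas 2.3.3, statsmodels 0.14.6) was tested on simulated data.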

Additional observations from a re-analysis of the deposited data

How the results depend on the processing

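The ratio taken for each gene was compared over the alternatives that change the ratio or the choice of probe set. Sp5 (2.76 to 3.03), Rspo3 (1.80 to 2.07), Dkk1 (0.75 to 1.04), Axin2 (0.85 to 0.96) and Nkd1 (0.60 to 0.99) stayed above 1.5-fold wherever the gene had a kept probe set. Lef1 ran from -0.16 to 0.35. Single kept probe sets could fall short, as the third Nkd1 probe set did (0.13). The count of 5 higher members fell to 2 of 3 (Sp5 and Axin2) with the filter at the 75th percentile, because fewer genes pass, and was 3 at a 2-fold threshold. With no filter it was 7 of 8, but the added members are Notum and Lgr5, which are too dim to be given a direction. The dimmer Lgr5 probe set read lower with FGF10 (30.9 and 5.6) and was not the one taken. By the probe set taken for each gene, 0 members were lower in any setting. For the other pathway genes, no filter gave 24 higher and 8 lower of 85, and the 2-fold threshold 7 and 0. The 1 lower gene, Nkd2, was lost (0) with the offset, the 75th percentile filter, the mean over probe sets and the second brightest probe set. Over all genes, no filter gave 2516 higher and 2895 lower of 18193, the 75th percentile filter 236 and 94 of 6621, and the 2-fold threshold 147 and 144. No paired analysis was possible because each group has 1 array. Dim signals limit Notum, Lgr5 and the dimmer probe sets of Nkd1, Dkk1 and Rspo3, and the variation between cultures is unknown.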

Other observations

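Among the 23 other Wnt pathway genes whose probe sets all lay below the filter, 10 had a ratio past 1.5-fold upward and 7 downward, against 26% and 34.2% of all 7071 genes below it. Those read higher included Rspo2 (10.2 and 77.4), an R-spondin, Dkk4 (7.4 and 35.7) and Dkk2 (5.6 and 19.6), relatives of Dkk1, and Msgn1 (16.4 and 57.4), a factor of presomitic mesoderm. Those read lower included Cdx2 (63.8 and 32.4) and Ascl2 (78.8 and 24.9). None of these is given a direction, since both signals or their mean lie in the range left out as dim, and they were looked at after the values of the brighter genes had been seen.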
